A study of Danio rerio with 4 samples.

Results

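Class p transcript models are long-read models that the program Cuffcompare placed close to a reference transcript without overlap of its exons or introns, a class its documentation names possible polymerase run-on. All models with class code p in the tables of 2 zebrafish (Danio rerio) long-read libraries were taken, which gave 473 of 25854 models in all: 236 of 13102 in the treated library, from embryos given α-amanitin, and 237 of 12752 in the untreated library. The reference gene that Cuffcompare paired with such a model is called its neighbour gene here. Each table records class, length and neighbour of a model but neither strand nor position, so which end of the neighbour a model lies at was not measured, and the name run-on is that of the class.

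The untreated library came from wild-type embryos, and the treated library from embryos injected at early cleavage with 0.2 nmol of α-amanitin, an inhibitor of RNA polymerase that blocks transcription from the embryo's own genome. Each was made from polyadenylated RNA of 15 pooled embryos of AB, TAB14 or TAB5 wild-type parents, and both carry a stage label of 6 hours post fertilization, although the treated sample's source name gives 256 cells, an earlier stage. With 1 library per group there was no replicate check of any difference between conditions. The other 2 samples, untreated embryos at 2.5 and 5.25 hours post fertilization profiled with short reads, had no per-sample file analysed here. A series-wide table gave the abundance of 32575 transcripts in columns named for control and α-amanitin. Of these, 15936 were RefSeq reference transcripts and 16639 were long-read models with entries of their own. Levels given here are those of the reference entries. Where a gene also has a long-read entry, the reference value need not be the level of the whole gene. The reads behind these columns are not stated; if they were those of the short-read samples, the columns would contrast stages and not the treatment.

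The 3′ end of most messenger RNAs is made by cleavage and polyadenylation: a complex of CPSF and CstF proteins recognises signals in the RNA, cuts it and hands it to a poly(A) polymerase, while RNA polymerase II transcribes on past the cut before it is released. Many genes carry several such sites, and a reference transcript that stops at an early one leaves polyadenylated RNA outside its annotated end. Before zygotic genome activation the zebrafish embryo holds RNA laid down by the mother, and α-amanitin prolongs that state. On a check of the column labels, 24 of 24 zygotic genes with a value were higher by 2-fold or more in the control column. Of 19 maternal genes, 14 were at least 2-fold lower, 2 were higher by as much and 3 were within 2-fold. The check reads the columns alone, and columns that contrast stages could give the same counts. None of either list had a class p model (0 of each). Only 5 zygotic genes (treated library) and 3 (untreated library) had any long-read model, and 19 and 18 maternal genes. These counts do not bear out the labels of the libraries, which stay unchecked. Class p named 232 of 6658 genes in the treated library and 228 of 6538 in the untreated library, so a 0 in lists this small carries no information.

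Class p made up 1.80% of the models of the treated library (95% Wilson interval 1.59 to 2.04) and 1.86% of those of the untreated library (1.64 to 2.11). The difference of 0.0573 percentage points did not pass Fisher's exact test (two-sided, adjusted p = 0.911, Benjamini-Hochberg over 11 classes), a test of these libraries' model counts that says nothing of the conditions. Intervals cover counting error alone. The table keeps each model as 1 entry whatever its abundance, and its abundance columns were 0 throughout, so the reads behind a model are unknown.

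Class p models were short. Their median length was 701 bases in the treated library (95% interval of the median over models 610 to 823) and 709 bases in the untreated library (576 to 796), with quartiles of 455 and 1178.75 bases, and of 416 and 1229 bases, in the same order. The medians of class = models, which match every intron of a reference transcript, were 1751 and 1701 bases, and those of intergenic class u models, which have no neighbour, were 1209 and 1172.5 bases. Among the 11 classes the class p median ranked 3 from the shortest in each library, above repeat models (class r, 504.5 and 528.5 bases) and intronic models (class i, 655 and 644.5 bases), and the intervals of class p and class i overlapped in each library. Models under 500 bases made up 30.9% of class p in the treated library (73 models, 25.4 to 37.1) and 35.4% in the untreated library (84 models, 29.6 to 41.7), against 1.67% and 1.82% of class =. Models of 1 library are not replicates, so these lengths have no test.

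**Figure D1:**
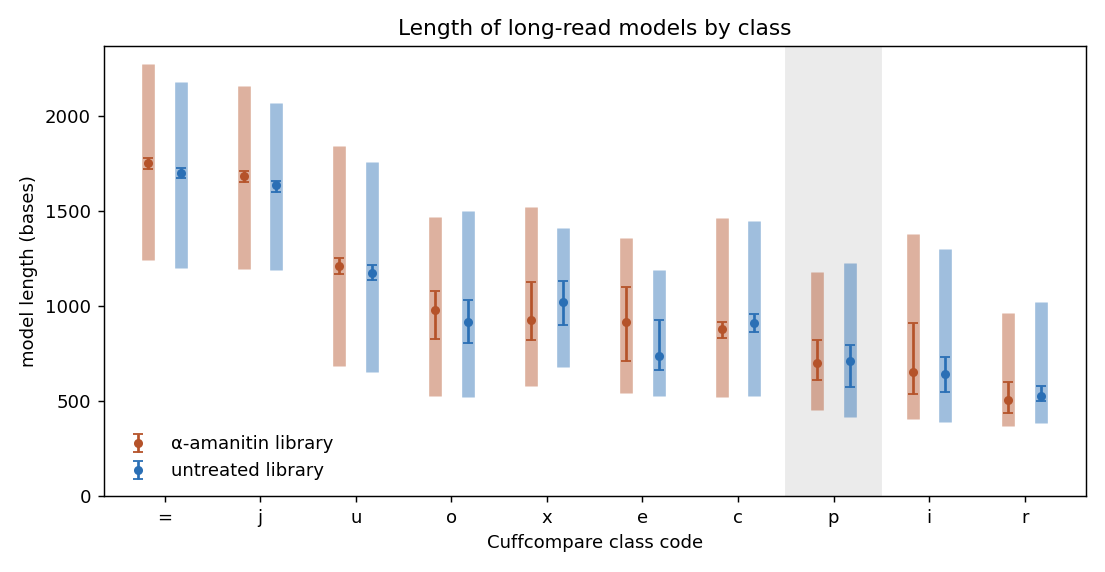
Length in bases (vertical axis) of the long-read models of each Cuffcompare class (horizontal axis) in the α-amanitin and the untreated library. Points are medians, error bars the 95% order-statistic interval of the median, pale bars the quartiles; class p (shaded) has medians of 701 and 709 bases, and class s, with 10 models in each library, is not drawn.

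The longest and shortest members span more than an order of length. In the untreated library the longest class p model, of 4005 bases, lay beside ago2, which encodes the Argonaute that carries out RNA interference. It was followed by models beside nrg2a (3216 bases), a neuregulin growth factor gene, and pip5k1ab (2847 bases), a kinase gene that makes a phosphoinositide. In the treated library the longest lay beside rps6ka3b (2882 bases), a ribosomal S6 kinase gene, slc5a6a (2686 bases), a vitamin transporter gene, and extl3 (2559 bases), whose product starts heparan sulfate chains. The shortest were beside c1galt1b (279 bases), ptpn23b (302 bases) and ska3 (306 bases) in the untreated library, and beside adcy3a (300 bases), rev1 (302 bases), irf2bp1 and eif4g1a (305 bases each) in the treated library. Most members were a fraction of their neighbour: the median ratio of model length to the length of the neighbour reference transcript was 0.322 (0.284 to 0.373) in the treated library and 0.338 (0.279 to 0.407) in the untreated library. The model was longer than the neighbour reference for 14 and 28 models, respectively. Neighbour reference transcripts had a median length of 2275 bases (2068 to 2432) and 2244.5 bases (2073 to 2377), and the references matched by class = models 1686 bases (1659 to 1710) and 1664 bases (1637 to 1693).

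The 473 models named 392 neighbour genes, 232 in the treated library and 228 in the untreated library. The neighbour gene was itself sequenced in only part of the cases. In the treated library 100 of 232 neighbour genes (43.1%, 36.9 to 49.5) had a class = or class c model, the latter contained within a reference transcript. In the untreated library it was 83 of 228 (36.4%, 30.4 to 42.8). A class = model was found for 69 and 60 of these genes, a class c model for 39 and 31, and a class j model, which shares a splice junction with the reference, for 48 and 45. A further 34 and 41 genes had models of other classes with neither = nor c. The remaining 98 genes (42.2%, 36.1 to 48.7) and 104 genes (45.6%, 39.3 to 52.1) were named in their library by class p alone.

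Those genes enter a count of sequenced genes without any model over their own exons. They were 98 of the 6658 genes named in the treated library (1.47%, 1.21 to 1.79) and 104 of the 6538 named in the untreated library (1.59%, 1.31 to 1.92). Of the 98, the other library held a model of another class for 35, class p alone for 20 and nothing for 43; of the 104 it was 37, 20 and 47. Over both libraries, 110 of the 392 neighbour genes (28.1%, 23.8 to 32.7) had no model of any class other than p, and 215 (54.8%, 49.9 to 59.7) had a class = or c model in at least 1 library. Where the neighbour had a model of a class other than p, that model was of class = or c for 100 of 134 genes (74.6%, 66.6 to 81.2) and 83 of 124 genes (66.9%, 58.3 to 74.6), and among all genes named by other classes for 76.7% and 77.3%.

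The numbering of PacBio loci allowed a look at where the members lie. Locus numbers are grouped by chromosome: of successive loci with a gene name, 98.6% in the treated library and 98.5% in the untreated library were on the same chromosome in the RefSeq table of assembly GRCz12tu. Their order within a chromosome was not checked against positions, so next, before and after refer to locus numbers. Most class p models stood alone, with no model of another class in the locus for 224 of 236 (94.9%) and 223 of 237 (94.1%). For 136 and 129 class p models the neighbour gene had a model of another class. In the treated library that model lay in the next locus before or after for 124 of the 136 (91.2%), in the same locus for 9 and 2 loci away for 3. In the untreated library it was 115 of the 129 (89.1%), 9 and 5, and in neither library did a gene's nearest model lie farther away (0 models). Closeness to the neighbour is how the class is assigned, so nearness was fixed by the rule; the side was not. The gene was numbered before its class p model in 66 cases and after it in 58 in the treated library (next locus), and in 56 and 59 cases in the untreated library. Among genes with class p and another class at different loci in both libraries, the side was the same in 27 of 27, with the gene before in 17 and after in 10. Gene strand was not used here, so before and after are not upstream and downstream.

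**Figure D2:**
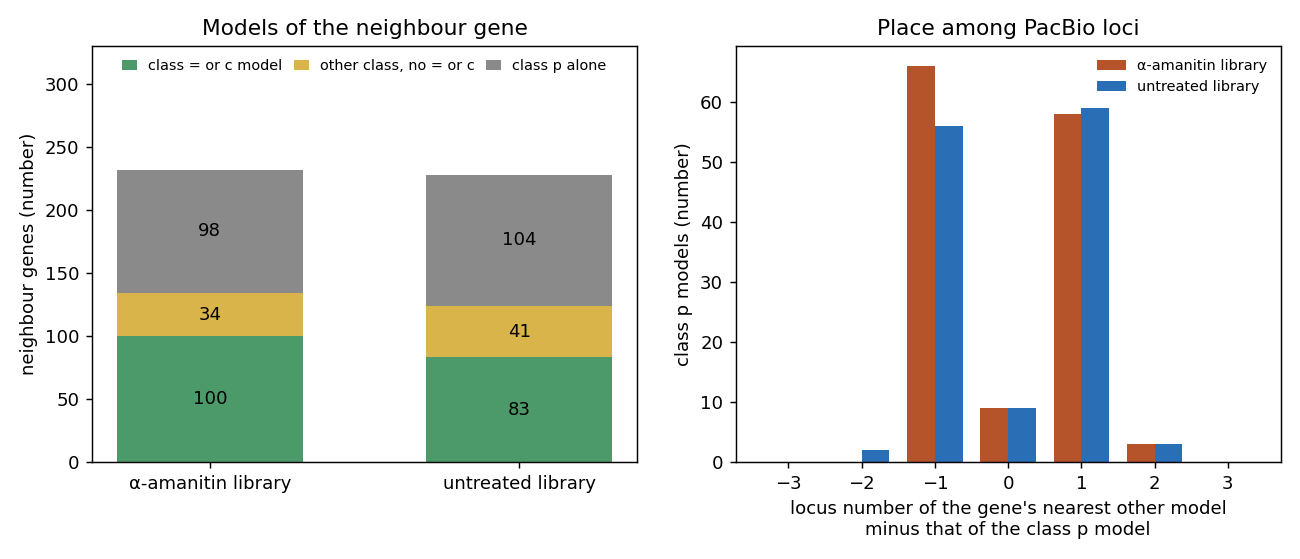
Left, number of neighbour genes of class p models in each library, split by whether the gene also had a class = or c model (100 and 83), another class only (34 and 41) or class p alone (98 and 104). Right, number of class p models (vertical axis) by the locus number of the gene's nearest model of another class minus that of the class p model (horizontal axis); the bars stand mainly at −1 and 1.

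Where class p models shared a locus with other models, 9 of 12 in the treated library and 9 of 14 in the untreated library shared it with a model of the neighbour gene itself. These were ei24, ddx19, tspan15, peli2, flot1a, pdik1l, fbxo18 and ttc14, the last with a pair of models, in the treated library, and zgc:114200, zgc:110843, b4galt1l, syncripl, tmod2, arfgap2, f2rl1.2, rnf146 and ankrd13a in the untreated library. In 1 case the locus held models of another gene: the class p model beside zgc:92287 in the untreated library shared its locus with models of pm20d1.1. These genes were named because they share a locus and not by their values.

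Recurrence between the libraries was limited. Both libraries had a class p model beside 68 genes, which is 29.3% of the neighbour genes of the treated library (23.8 to 35.5) and 29.8% of those of the untreated library (24.3 to 36.1). For comparison, genes with a class = model recurred in 80.6% and 84.4%, with class j in 56.1% and 62.0%, with class c in 45.9% and 42.8%, with other exonic overlap (class o) in 24.9% and 23.2%, and with exonic overlap on the opposite strand (class x) in 23.6% and 26.6%. Genes with an intronic model (class i) recurred in 41.0% and 27.9%, and those with class e in 16.4% and 16.7%. Of the 164 genes with class p in the treated library alone, 106 (64.6%) had a model of another class in the untreated library, 81 of them class = or c, and 58 had no model there. Of the 160 with class p in the untreated library alone, 102 (63.8%) had a model of another class in the treated library, 71 of them class = or c, and 58 had none. Recurrent models had the higher median length: 823 bases (628 to 978) and 943 bases (750 to 1209), against 638 (543 to 755) and 584.5 (512 to 730) for genes with class p in that library alone. These intervals overlapped in the treated library and did not overlap in the untreated library.

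Recurrent neighbours seldom had a model of the same length in both libraries. Of the 64 genes with 1 class p model in each library, 17 (26.6%) had lengths within 10% of each other, 7 of them within 10 bases, while 27 differed by more than 10% and up to 2-fold and 20 by more than 2-fold. The untreated model was longer for 34 genes and the α-amanitin model for 30. Among the closest were notch1a (631 bases in the treated library and 630 in the untreated library), ppp3ccb (2082 and 2083), zgc:92287 (1560 and 1561), fam129bb (388 and 383), f2rl1.2 (1216 and 1209) and mcl1b (586 and 576). The widest gap, 8.20-fold, was at pip5k1ab, with 347 bases in the treated library and 2847 in the untreated library. The model beside ctdsplb was 365 and 1574 bases long, and that beside zbtb18 1700 and 341. As a description across these 64 genes, Spearman's rho of the lengths was 0.27.

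**Figure D3:**
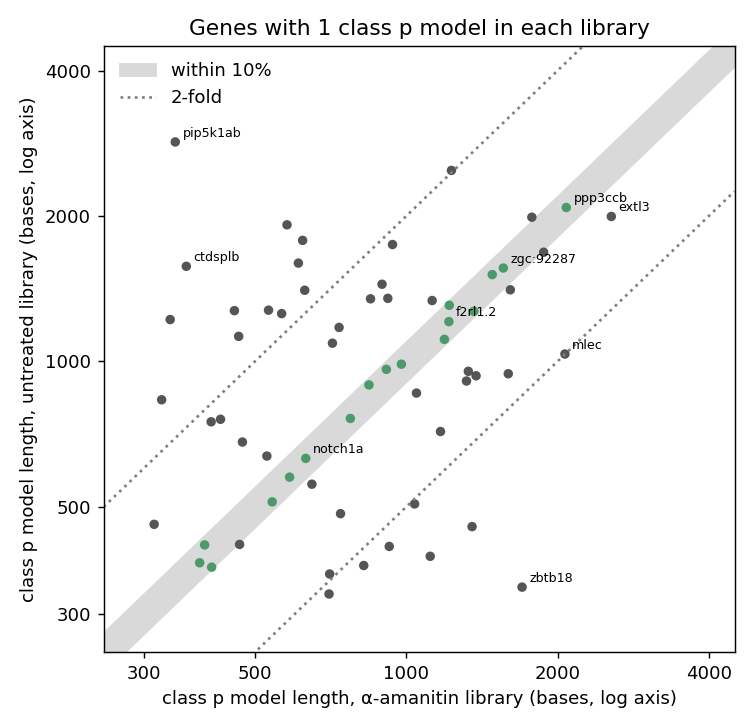
Length of the class p model in the treated library (horizontal, bases, log axis) and in the untreated library (vertical, bases, log axis) for the 64 genes with 1 class p model in each; points are genes, the grey band marks lengths within 10% and dotted lines 2-fold. Green marks the 17 genes within 10%, and 20 genes lie beyond the dotted lines.

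The 68 recurrent neighbours are described next by textbook role, with lengths in bases and levels in TPM (a transcript's level scaled for its length and to a fixed total per column). The level is that of the reference transcript in the deposited table and does not include the class p model. Roles were assigned with the values known and no role was tested. As background to the counts below, 24.6% of all 15936 RefSeq transcripts were lower by 2-fold or more in the control column and 22.6% were higher by as much. Among the 11529 RefSeq transcripts that reached 1 TPM in either column, 3920 were lower and 3603 higher. Of the 68 recurrent neighbours themselves, 36 (52.9%) were lower and 7 (10.3%) higher. The groups are parts of these 68, so a group count near that share does not set its role apart. Log2 ratios are of control to α-amanitin on the log2(TPM + 1) scale, which understates changes of low transcripts, and with 1 column per condition they have no error. In RNA of whole embryos, fewer cells of a type and less RNA per cell cannot be told apart.

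Genes of the secretory pathway, vesicle traffic and glycan synthesis formed a group of 12, of which 9 were lower by 2-fold or more in the control column and 0 higher, with a median log2 ratio of −2.34. The model beside mlec, which encodes malectin, a glycan-binding protein of the endoplasmic reticulum, was 2069 bases in the treated library and 1036 in the untreated library, and the mlec transcript was listed at 65.1 TPM in the α-amanitin column but at 0 in the control column. For nus1, a subunit of the enzyme that makes dolichol, the models were 1877 and 1683 bases and the transcript was listed at 0 and 109 TPM (control and α-amanitin, the order used below). The galactosyltransferase gene b4galt1l had models of 919 and 1351 bases and a transcript listed at 0 and 35.8 TPM. All of these 3 genes had a class = model in each library, so a listed 0 in the control column does not show that the RNA was missing. The endoplasmic reticulum GTPase gene atl3 had models of 315 and 460 bases and a level of 2.43 against 66.4 TPM (log2 ratio −4.30). The oxysterol-binding protein gene osbpl2b was at 7.80 against 91.9 TPM (−3.40), and arfgap2, a regulator of coat-protein vesicles, at 48.9 against 271 TPM (−2.44). Levels of aftpha were 8.49 against 43.5 TPM (−2.23), of ext1b 13.7 against 44.5 TPM (−1.63) and of uggt1, a sensor of misfolded glycoproteins, 35.5 against 94.4 TPM (−1.39). The others, asap2a, extl3 and vapb, stayed within 2-fold, between −0.81 for extl3 and 0.19 for vapb.

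Of 8 genes of lipid, sugar and amino acid metabolism or transport, 6 were lower by 2-fold or more in the control column and 0 higher (median log2 ratio −2.54). The zinc transporter gene slc39a13 had models of 541 and 512 bases and a transcript at 6.47 against 142 TPM (−4.26). The phosphoinositide phosphatase gene inpp5f had models of 1611 and 1407 bases and a level of 7.58 against 101 TPM (−3.57), and the ceramide synthase gene cers2a models of 1778 and 1989 bases and a level of 5.62 against 54.6 TPM (−3.07). The phospholipid synthesis gene cept1a was at a log2 ratio of −2.74 with 35.1 TPM in the α-amanitin column, the alanine aminotransferase gene gpt2 at 36.2 against 187 TPM (−2.34) and the mitochondrial carrier-like gene sfxn3 at 3.02 against 13.6 TPM (−1.86). The phosphofructokinase gene pfklb (−0.81) and pip5k1ab, at 64.4 TPM in each column, were within 2-fold.

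Of 9 signalling genes, 3 were lower by 2-fold or more in the control column, 1 higher and 5 within 2-fold. The receptor gene notch1a was at 76.3 against 43.8 TPM (log2 ratio 0.79), and nlk1, a kinase that modulates Wnt signalling, at 61.8 against 17.2 TPM (1.79) with models of 735 and 1176 bases. The Wnt transducer gene dvl2 had models of 702 and 330 bases and was at 3.71 against 8.56 TPM (−1.02). The kinase genes dapk1 (−2.53) and mark3b (−2.06) were lower, and cdc42bpb, the calcineurin subunit gene ppp3ccb, the calcium sensor gene stim1a and the receptor gene f2rl1.2 were between −0.85 and 0.24.

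Among 9 regulators of transcription, 4 were lower by 2-fold or more in the control column, 1 higher and 4 within 2-fold. The homeobox gene pbx4, whose product partners Hox proteins, had models of 978 and 987 bases beside a class = model in each library and was at 53.1 against 13.3 TPM (log2 ratio 1.92). The repressor gene zbtb18 was at 2.14 against 30.7 TPM (−3.34), mef2d at 0.969 against 8.30 TPM (−2.24), the Mediator subunit gene crsp7 at 7.81 against 38.5 TPM (−2.16) and the sterol regulator gene srebf1 at 1.74 against 5.86 TPM (−1.32). Values for mier3a, the coactivator gene ncoa2, the nuclear receptor gene pparg and the corepressor gene tle3a lay between −0.81 and −0.19. In the RNA-binding group of 3, ago4, an Argonaute gene, had models of 1596 and 943 bases and was at 68.7 against 144 TPM (−1.06). The gene igf2bp3, which encodes a binding protein of localised messenger RNAs, had models of 1483 and 1513 bases and was at 18.6 against 49.6 TPM (−1.37), and the reader of methylated adenosine ythdc1 at 54.3 against 63.6 TPM (−0.22). Of 4 genes of cell survival and protein turnover, ambra1a, an autophagy regulator, was at 4.74 against 27.1 TPM (−2.29), while mcl1b, bcl2l13 and the deubiquitinase gene usp9 were between −0.79 and −0.38.

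The other 23 recurrent neighbours included the highest levels, and 11 were lower by 2-fold or more in the control column, 5 higher and 7 within 2-fold. The gene zgc:163061 had models of 466 and 418 bases and a transcript at 934 against 52.6 TPM (log2 ratio 4.13). At zgc:110425, with a model of 408 bases in the treated library and a pair of 463 and 841 bases in the untreated library, the transcript was at 170 against 6.02 TPM (4.61). The other 3 higher genes were midn (16.1 against 0.871 TPM, 3.19), tmcc3 (76.6 against 12.7 TPM, 2.50) and btr12, listed at 8.88 TPM (control) and 0 (α-amanitin). The treated library held a class c model of midn and a class j model of btr12, so their α-amanitin values do not show that the RNA was missing. The nuclear import receptor gene tnpo2 was at 453 and 455 TPM (−0.0048). Among the lower ones, fam129bb was at 4.79 against 98.8 TPM (−4.11) and nxpe3 at 0.281 against 25.9 TPM (−4.39). The untreated library held a class = model of nxpe3, so its low control value does not show that the RNA was missing. The transcripts of si:ch211-215a10.4 and tmem161a were listed at 24.9 and 16.4 TPM in the α-amanitin column but at 0 in the control column, although each gene had a class = model in the untreated library. Also lower were ctdsplb (−3.49), zgc:101566 (−3.44), plekhm2 (−3.04), txlng (−2.62), uhrf1bp1l (−1.71), armc1 (−1.70) and tmem185 (−1.24). The laminin subunit gene lamc1 (0.86), hook2, mmd, specc1la, trim35-28 and zgc:92287 stayed within 2-fold, between −0.98 for zgc:92287 and 0.86 for lamc1.

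A pair of class p models was found beside 13 genes, 4 in the treated library and 9 in the untreated library. In 12 of the 13 cases the pair occupied successive loci, and at ttc14, in the treated library, both models (330 and 1120 bases) lay in the locus of a class j model of the gene. At asb7, in the treated library, models of 439 and 957 bases preceded the locus of a class = model of 1555 bases, and at c1galt1b, in the untreated library, models of 279 and 392 bases preceded one of 1972 bases. The same order was seen at spryd3 (402 and 566 bases, then a class = model) and tomm70a (314 and 796 bases, then a class c model). At stx10 (326 and 1717 bases) and fancc (350 and 747 bases) the pair followed the gene's own models. At uhrf1bp1l (381 and 435 bases) and bend5 (347 and 413) in the treated library, and at pparg (376 and 656), tnpo2 (310 and 1874), prkca (416 and 1143) and zgc:110425 in the untreated library, the pair was all that the library held of the gene.

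The levels of the neighbour transcripts were then read from the expression table, in which 387 of the 392 had a value. Neighbour transcripts had a median of 8.49 TPM (control) and 27.0 TPM (α-amanitin), and a median log2 ratio of −0.94 (95% interval over transcripts −1.24 to −0.79; quartiles −2.18 and −0.10). Lower by 2-fold or more in the control column were 192 of 387 (49.6%, 44.7 to 54.6), while 24.6% of the 15936 RefSeq transcripts were. At least 2-fold higher were 27 (6.98%, 4.84 to 9.96), against 22.6% of RefSeq transcripts, and 168 were within 2-fold. Transcripts that long reads also named give a second background: for class = models the median log2 ratio was −0.65 (−0.73 to −0.57) in the treated library and −0.61 (−0.68 to −0.52) in the untreated library, with 43.9% and 42.8% lower and 20.2% and 20.6% higher. Neighbour transcripts were also more abundant than RefSeq transcripts at large, whose medians were 2.86 and 2.11 TPM. Of the neighbours, 362 (93.5%) reached 1 TPM in either column, against 72.3%. Transcripts named by class = models reached it in 94.6% (treated library) and 94.5% (untreated library). In the untreated library their medians were 12.1 TPM (control) and 25.6 TPM (α-amanitin). Abundance therefore does not set the neighbours apart from transcripts named by class =. Centring subtracted from every ratio the median of all entries, RefSeq and long-read, that reached 1 TPM in each column. That median was −0.47, so the RefSeq median became 0.47. Centring left 156 neighbours lower and 44 higher. Of the neighbours past 2-fold, 22.0% were then higher in place of 12.3%, and of RefSeq transcripts past 2-fold 62.5% in place of 47.9%.

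**Figure D4:**
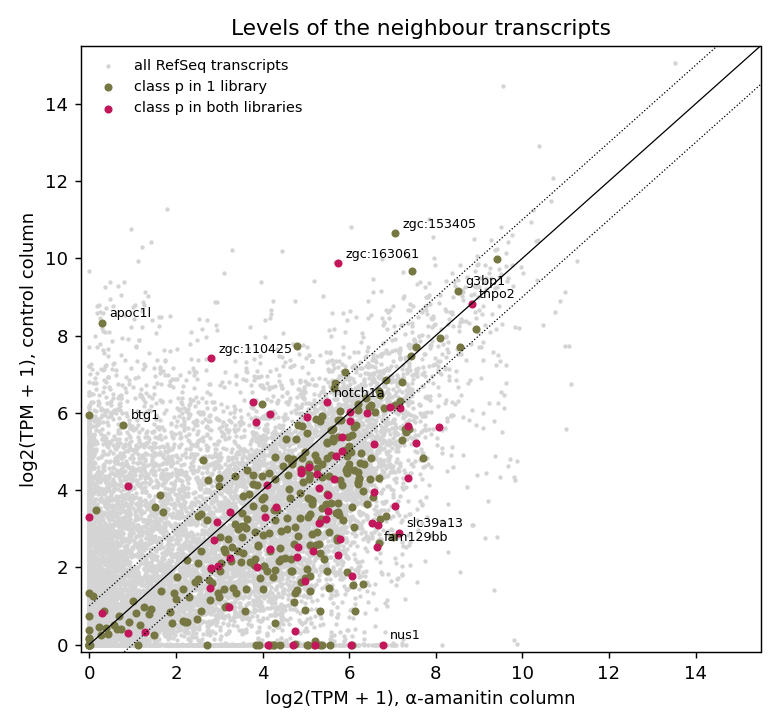
Level of each reference transcript as log2(TPM + 1) in the α-amanitin column (horizontal) and the control column (vertical). Grey points are all 15936 RefSeq transcripts, coloured points the 387 neighbour transcripts of class p models, the solid line equal levels and dotted lines 2-fold; 192 neighbour transcripts lie below the lower dotted line and 27 above the upper one.

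Ratios were also read by the library in which the class p model was found. Neighbours with class p in the treated library alone had a ratio of −1.05 at the median (160 transcripts, −1.44 to −0.68), those with class p in the untreated library alone −0.84 (159 transcripts, −1.26 to −0.59) and those with class p in both −1.15 (68 transcripts, −2.06 to −0.79), and these intervals overlap. Higher by 2-fold or more in the control column were 4 of 160 (2.50%, 0.976 to 6.25), 16 of 159 (10.1%, 6.29 to 15.7) and 7 of 68 (10.3%, 5.08 to 19.8). The intervals of the first and second share all but meet, and transcripts are not replicates. The sets were split by library, and the columns were matched to the same groups by name. A gene high in 1 group is more readily sampled there, so this comparison is not independent of the split and was not tested. Neighbours that also had a class = or c model in the untreated library had a median of −1.78 (82 transcripts, −2.39 to −1.06) and those named there by class p alone −0.66 (104 transcripts, −1.10 to −0.30). These 2 intervals overlap. In the treated library the same medians were −1.10 (97 transcripts, −1.66 to −0.67) and −1.10 (98 transcripts, −1.52 to −0.77). Listed at 0 in the control column were 12 of the 82 and 3 of the 104 transcripts, and 17 of the 97 and 1 of the 98. A listed 0 of a gene with a long-read model does not show missing RNA, so the split need not reflect the level of the whole gene. Neighbours named by class p alone had values well above 0, with medians of 9.66 and 25.7 TPM (control and α-amanitin columns) for the treated library and 9.57 and 23.1 TPM for the untreated library.

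At the extremes, among the 297 neighbour transcripts that reached 10 TPM in a column, apoc1l, an apolipoprotein gene, was at 321 against 0.222 TPM (log2 ratio 8.04), with a class p model of 477 bases in the untreated library and no other model in either. The antiproliferative gene btg1 was at 50.8 against 0.728 TPM (4.91) with a model of 754 bases in the treated library. Class j and o models of btg1 were also found there, so the low reference value need not be the level of the whole gene. The ribosomal protein gene rps12 was listed at 60.5 TPM (control) and 0 (α-amanitin), although a class = model of it was found in the treated library. The listed 0 therefore does not show that the RNA was missing, and its cause was not tested. Beside nus1 and mlec, the transcripts of peli2 (66.4 TPM), apopt1 (45.9 TPM) and ankrd12 (40.7 TPM in the α-amanitin column) were listed at 0 in the control column, and each had a class = model in the untreated library. In all, 28 of the 387 neighbour transcripts were listed at 0 in the control column, 13 in the other and 6 in both. Of all 15936 RefSeq transcripts, 1252 were listed at 0 in the control column, 2585 in the other and 739 in both. Zeros in the control column thus also occur outside the neighbours. Among the neighbours they outnumbered those in the α-amanitin column, while among all RefSeq transcripts they were fewer. This contrast was not tested.

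The most abundant neighbours were zgc:153405 in the control column, at 1613 against 133 TPM (log2 ratio 3.59), with a model of 412 bases in the untreated library, and zgc:195633, at 1004 against 685 TPM (0.55), with a model of 1656 bases in the treated library. They were followed in the control column by zgc:163061, by sall4, a zinc finger regulator of pluripotency, at 816 against 174 TPM (2.22) with a model of 1738 bases in the untreated library, and by g3bp1, a stress granule protein gene, at 570 against 366 TPM (0.64) with a model of 319 bases in the treated library. In the α-amanitin column zgc:158463 (288 against 487 TPM, −0.76), tnpo2 and the RNA helicase gene ddx19 (208 against 375 TPM, −0.84) completed the highest 5.

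Neighbour genes with a class = model had more models that outran the reference. Of class = models of neighbour genes, 22 of 70 in the treated library (31.4%, 21.8 to 43.0) and 20 of 60 in the untreated library (33.3%, 22.7 to 45.9) were over 10% longer than the reference transcript, against 720 of 4068 (17.7%, 16.6 to 18.9) and 642 of 3894 (16.5%, 15.4 to 17.7) of other genes. The intervals of these shares did not overlap in either library. Relative to the reference length, the median of the neighbour genes' class = models was 1.02 (1.01 to 1.07) in the treated library, against 1.007 (1.006 to 1.008) for other genes. In the untreated library it was 1.03 (1.0004 to 1.095) against 1.005 (1.003 to 1.006), and there the intervals overlapped. Total lengths were compared, so where in a model the extra bases lie was not measured. Many genes and models are shared by the libraries, so these are not independent observations.

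Genes of the machinery that makes and ends messenger RNA 3′ ends were looked up as background. Of 38 such genes, 28 had a value, with 7 higher by 2-fold or more in the control column, 6 lower and 15 within 2-fold (median log2 ratio −0.0039), and each library held a model for 27 of the 38. Of all 15936 RefSeq transcripts, 22.6% were higher and 24.6% lower by as much, so these counts do not set the list apart. Among the listed genes, slbp2, the maternal stem-loop binding protein of histone messages, was at 19.2 against 710 TPM (−5.14), cpsf2 at 11.8 against 111 TPM (−3.12), rbbp6 at 83.1 against 17.3 TPM (2.20) and pcf11, a termination factor gene, at 48.6 against 18.5 TPM (1.34). The exonuclease gene xrn2, whose product degrades RNA behind the cut, was at 5.18 against 4.77 TPM (0.10). Only cpsf6 was a neighbour of a class p model, of 389 bases in the untreated library, where the gene also had class = and j models. Its reference transcript was at 1.21e-06 against 14.0 TPM (−3.91). With those models in the untreated library, the very low control value does not show that the RNA was missing.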

How the data were processed

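Per the series description, the authors built long-read models with IsoSeq, placed them on GRCz10 using GMAP and classed them against reference transcripts using Cuffcompare; versions are not given in the sources used here. The deposited tables give model lengths in bases, and their deposited FPKM values were 0 for every model (0 above 0 in each library). The expression table holds log2 values, read from the deposited numbers as log2(TPM + 1), since they sum to 1000000 TPM per column after back-transformation; kallisto is named in the submitters' processing notes with no role. TPM keeps no depth, so the depth is unknown. The columns were matched to groups by name. The number of per-sample columns not used was 0.

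The software was Python 3.11.15, numpy 2.4.6, pandas 2.3.3, scipy 1.17.1 and matplotlib 3.10.9. Shares have Wilson 95% intervals; medians have exact binomial order-statistic intervals over models or transcripts, which are not replicates. The log2 ratio used a pseudocount of 1 TPM and a threshold of 2-fold, and named extremes at least 10 TPM in either column. Class shares were compared with Fisher's exact test. That test, the interval of the median and the log2 ratio were tried on simulated data, and the difference in locus number on a small made-up example. The Wilson intervals were not tried in this way. Alternatives changed the models counted (at least 500 bases, longest per locus), the classes that count, the pseudocount (0.1 TPM), a minimum of 1 TPM, the scaling, 4-fold, and sums per gene.

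Members, gene lists and rules were chosen with earlier results of these data known. Named were neighbours with class p in both libraries, with 2 class p models, with the 3 longest and 3 shortest models per library, the 5 largest rises and falls and the 5 highest levels per column, and listed 3′ end genes; 99 genes met this rule. Genes that share a locus with a class p model, other 3′ end genes and 1 gene tied in length were named in addition.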

Additional observations from a re-analysis of the deposited data

How the results depend on the processing

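No paired analysis was possible because each group has 1 library. Of 34 values under alternatives, 16 kept to their interval, their side of the threshold or, for counts, a range of 1.5 times. With models of at least 500 bases the difference in class p share reversed to −0.0328 points (adjusted p 1); keeping 1 model per locus, the longest, it was 0.0046 points, and neither passed the test. The shares became 1.38% (treated) and 1.35% (untreated) with models of at least 500 bases, and 2.39% in each library on keeping the longest per locus. The 500-base minimum raised the median lengths to 963 and 1062 bases and left 44 recurrent genes, by construction. The share of neighbours with a class = or c model was 29.7% and 26.3% with class = alone, 55.2% and 49.1% with class j added, and 57.3% and 52.2% with either library, also by construction. Scaling moved the median log2 ratio to −0.47 and the 2-fold higher transcripts to 44 of 387 (11.4%, against 30.2% of RefSeq transcripts), since each ratio shifts by a constant. A 4-fold threshold left 16 higher and 110 lower of 387, with no RefSeq share at that threshold to set beside them. Leaving out values listed at 0, chosen after seeing the data, gave a median of −0.93 over 352 neighbour transcripts. Of these, 24 were higher (6.82%) and 173 lower (49.1%), against 23.4% and 28.0% of 12838 RefSeq transcripts. Read numbers behind models are unknown, so a missing class p model can be one not sampled.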
